A study of Mus musculus with 2 samples.

Results

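The TRIM (tripartite motif) genes were taken as every gene whose name on the array begins with Trim and a digit, without Trim32 and the muscle RING finger genes Trim54, Trim55 and Trim63. This gave 63 genes, read by 96 probes, of 34740 gene names on the array. The RNA came from skeletal muscle. The mice were males of the strain CD2F1/Slc, 11 weeks old, and 1 array was made for a control sample and 1 for a C26 sample. The control group received PBS, and the C26 group received 1000000 cells of the colon 26 (C26) carcinoma in 100 µL of PBS under the skin of the flank, a mouse model of cancer cachexia, the wasting of muscle and fat that accompanies some cancers. Both groups thus share strain, sex, age and the injected fluid. The sources used here do not give the muscle taken, the time after injection or whether RNA of several mice was combined. Each array was hybridised with Cy3-labelled RNA, and neither group has a replicate. The values therefore describe 1 pair of arrays, no test was possible and no p-value is given.

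Most TRIM proteins carry a RING finger that transfers ubiquitin, 1 or more B-box zinc fingers and a coiled coil through which they pair. What follows the coiled coil sorts them further: a PRY-SPRY domain that binds partners in most members, NHL repeats that bind RNA, or a PHD finger and bromodomain that read histones. Many are switched on by interferon and act in antiviral defence, others regulate transcription, the cytoskeleton or autophagy, and Trim72 is known as a repair protein of the muscle membrane.

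RefSeq (GRCm38.p6) gave a promoter of 300 bases, from 250 before to 50 after a gene's start, for 48 of the 63 genes. The letters GAAA, any 2 bases and GAAA again, the core of the interferon-stimulated response element, were looked for on both strands and stood in the promoters of 9 of these 48 genes (18.8%), against 3.99% of all 27025 genes with a promoter. The matches are shown because the element is known from interferon-induced genes, 8 of the 9 genes are in the innate immunity group (Trim2 is not), and several are near copies of each other; capitals mark the matched letters, on either strand, with 7 bases on each side.
Trim5, chr7:104288139-104288162, minus strand: gttgtggTTTCTGTTTCatttcca
Trim12a, chr7:104315469-104315492, minus strand: gttgtggTTTCTGTTTCatttcca
Trim12c, chr7:104353362-104353385, minus strand: gttgtggTTTCTGTTTCatttcca
Trim30a, first promoter, chr7:104446107-104446130, minus strand: tttttagTTTCTTTTTCtcagttc
Trim30a, second promoter, chr7:104465213-104465236, minus strand: tctttagTTTCTTTTTCtcagttc
Trim30d, chr7:104507874-104507897, minus strand: tctttagTTTCTTTTTCtcagttc
Trim34a, chr7:104244460-104244483, plus strand: tttggagTTTCAGTTTCttttctc
Trim21, chr7:102565447-102565476, minus strand: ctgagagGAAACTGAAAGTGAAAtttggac
Trim26, chr17:36836979-36837008, plus strand: cttccgaTTTCACTTTCCTTTTCtcgggcc
Trim2, chr3:84212794-84212817, minus strand: gctttggTTTCCTTTTCtctaaga
The windows of Trim5, Trim12a and Trim12c are letter for letter the same, and so are those of the second Trim30a promoter and Trim30d. In Trim21 and Trim26 a pair of matches overlaps. The matches begin 49 bases before the start in Trim5, 29 before it in Trim12c, 41 before it in Trim30d and 10 after it in Trim12a and Trim34a.

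The promoter of Trim10, the TRIM gene with the largest difference between the arrays, is given from 250 bases before its start up to the start (RefSeq, GRCm38.p6, plus strand). Capitals mark its match to AGATAA, the core of a site for GATA factors, read on the opposite strand and beginning 163 bases before the start.
Trim10, chr17:36869324-36869573: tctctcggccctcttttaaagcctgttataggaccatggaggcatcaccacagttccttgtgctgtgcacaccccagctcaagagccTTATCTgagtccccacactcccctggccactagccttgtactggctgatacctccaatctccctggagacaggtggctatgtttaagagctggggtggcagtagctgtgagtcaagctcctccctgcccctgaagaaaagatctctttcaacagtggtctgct
AGATAA on either strand is common: it stood in 12.7% of genes with a promoter and in 4 of the 48 TRIM genes (8.33%), which are Trim10, Trim34b, Trim39 and Trim72.

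Across the family, most TRIM genes that could be measured had nearly the same level on both arrays, and none of these differed 2-fold. Of the 63 genes, 36 were well above background on both arrays (57.1%, against 56.6% of all genes), and these are called measured. Trim10 and Trim60 passed on the C26 array alone, none was so on the control array alone, and 25 were so on neither. The log2 ratio is the C26 value minus the control value after scaling, so that 0 is no difference, and the brightest probe stands for its gene. Of the 36 measured TRIM genes, 0 were higher and 0 lower by 2-fold or more, where 1.25% of all 19668 measured genes were 2-fold higher and 1.15% were 2-fold lower. At 1.5-fold, 0 of the 36 were higher (4.37% of all measured genes were) and 1, Trim14, was lower (4.83% were). Trim10, which was not measured on the control array, is described below by a limit. The other 35 measured genes lay within 1.5-fold, as did 17860 of the 19668 genes. The median log2 ratio of the 36 was -0.06, against 0.04 over all measured genes, and 16 of the 36 were above 0 (44.4%), against 56.5% of all measured genes. Their median absolute log2 ratio was 0.19, and it was 0.19 over all measured genes too.

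The error given with a ratio is the scanner software's error of the spot signal carried to the log2 scale, and leaves out the spread between animals. It ran from 0.20 to 0.43 for the brightest probes of the measured genes other than Trim8, which has 10 spots, with a median of 0.21 over the 36 genes. In 6 genes the ratio was more than 2 such errors from 0: Trim13, Trim14, Trim35 and Trim8 were lower on the C26 array, and Trim39 and Trim30a were higher. Trim8 is among them through the smaller error of its 10 spots (0.06). The share of all measured genes this far from 0 was not computed, so the count is not read as a result about the family.

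**Figure D1:**
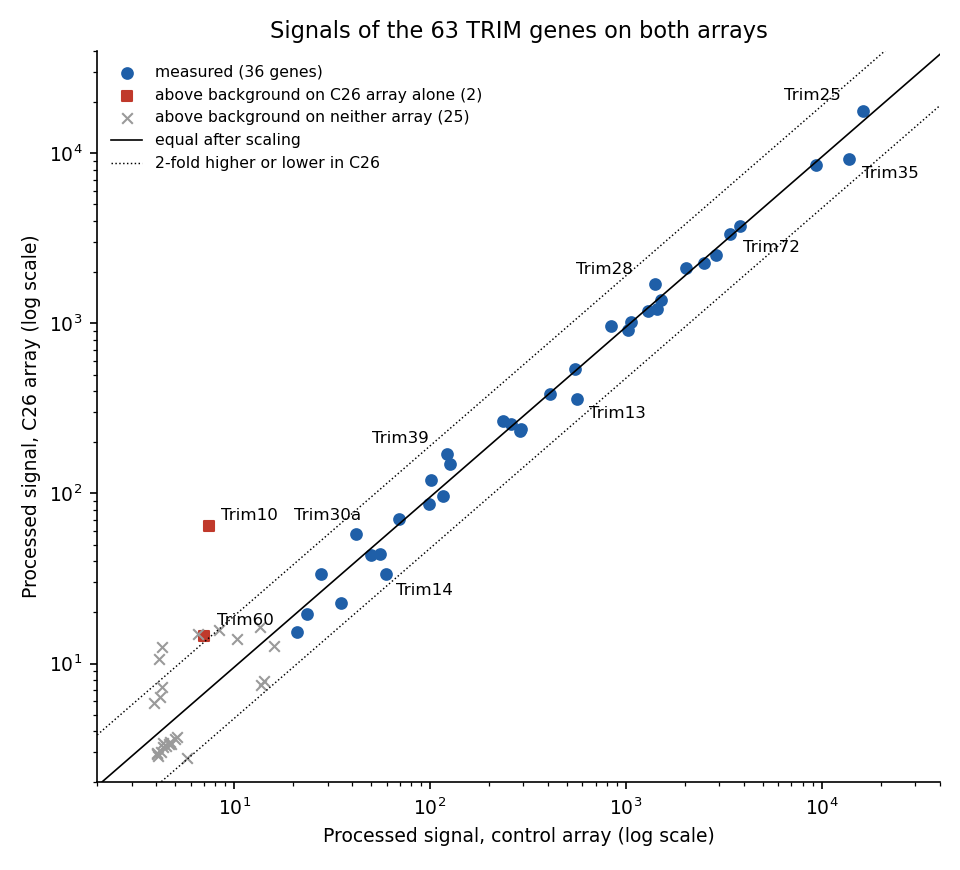
Processed signal of the 63 TRIM genes on the control array (x, log scale) and the C26 array (y, log scale), 1 point per gene for its brightest probe; the solid line marks equal scaled signals and the dotted lines a 2-fold difference. All 36 measured genes lie between the dotted lines, and Trim10 (7.44 and 64.0) stands well above them with its control signal below background.

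The innate immunity group held 23 TRIM genes, of which 13 were measured. Of these, 5 had a ratio above 0 and 8 below, with a median log2 ratio of -0.12 and a range from -0.76 to 0.53. Trim25, a ligase that ubiquitinates the RNA sensor RIG-I, had a signal of 16222 in control muscle and 17727 in C26 muscle, a log2 ratio of 0.20 with an error of 0.20. Its second probe gave 2452 and 2801, a log2 ratio of 0.26. Both probes were slightly higher on the C26 array, at about the size of the error. Trim21, the cytosolic receptor for the Fc part of antibodies, read 99.0 and 86.8, a log2 ratio of -0.12 with an error of 0.22, and so did not differ beyond it.

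The lowest measured ratio of the group, and of the whole family, was that of Trim14, a mitochondrial adaptor of antiviral signalling that lacks the RING finger. Its signal was 59.7 in control muscle and 33.5 in C26 muscle, 1.69-fold lower with a log2 ratio of -0.76 and an error of 0.27. The value rests on 1 of 3 probes, one listed under a cDNA clone; the others, at 4.76 and 4.71 on the control array, were not well above background. With normexp background correction its ratio was -0.33, within 1.5-fold. Trim13, a ligase anchored in the endoplasmic reticulum with roles in protein degradation and autophagy, read 559.5 and 357, a log2 ratio of -0.57 with an error of 0.20. Its second probe read 419 and 251, a log2 ratio of -0.66, so that both probes were lower on the C26 array by about the same amount.

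Trim30a, an interferon-induced mouse gene known to restrain NF-kB signalling, was the highest measured gene of the group. It read 42.0 in control muscle and 57.7 in C26 muscle, a log2 ratio of 0.53 with an error of 0.26, and 0.27 with normexp background correction. Its neighbours in the same gene array had ratios below 0 that were within their errors: Trim30d read 49.9 and 43.3 (log2 ratio -0.13, error 0.27), and Trim30c read 20.9 and 15.4 (log2 ratio -0.37, error 0.43). The Trim30c value is uncertain in a second respect. The same 60-base probe sequence was also printed under an unnamed transcript, and there it read 13.2 and 16.5, not well above background, with a log2 ratio of 0.39 of the opposite sign. Trim30b and the pseudogene Trim30e-ps1 were well above background on neither array.

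Trim23, which joins the tripartite motif to an ADP-ribosylation factor domain, read 101 and 120.0, a log2 ratio of 0.32 with an error of 0.22. The remaining measured genes of the group lay closer to 0. Trim27, a transcriptional repressor first known as RET finger protein, read 2017 and 2108 (log2 ratio 0.14), and Trim56, which acts on the DNA-sensing adaptor STING, read 1059 and 1021 (0.02, with -0.07 from its second probe). Trim26, which acts on the transcription factor IRF3, read 1295 and 1179 (log2 ratio -0.06). Trim12c, a mouse relative of Trim5, gave log2 ratios of -0.19, -0.20 and -0.03 from its 3 probes, and Trim34a read 23.6 and 19.6 (log2 ratio -0.19, error 0.39). None of these ratios was larger than its error. The 10 genes of the group without a measured probe were Trim5, Trim6, Trim12a, Trim15, Trim30b, Trim30e-ps1, Trim34b, Trim38, Trim40 and Trim65.

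Genes of interferon signalling and RNA sensing around these TRIM proteins, taken as a list of 25 names, gave 21 measured genes, of which 7 were above 0 and 14 below, with a median log2 ratio of -0.10. Only Rsad2 (viperin, an antiviral enzyme) was at least 2-fold higher, at 91.2 in control muscle and 477 in C26 muscle, a log2 ratio of 2.46; none was 2-fold lower. The lowest ratios were those of Mx2 (-0.89) and Oas1a (-0.71). Of 11 measured macrophage markers, 10 had a ratio below 0, where 56.5% of all measured genes were above 0, and the median log2 ratio was -0.17. Cd68 was the lowest, at 991 and 369 (log2 ratio -1.35), and 2 of the 11 were at least 2-fold lower, against 1.15% of all measured genes. Mrc1, C1qb, C1qa, Cd14 and C1qc lay between -0.17 and -0.05, and Mertk was at 0.22. Cd163 passed background on the C26 array alone. The summed scaled signal of the list was 33.5 in control muscle and 25.4 in C26 muscle, and such a sum follows the brightest markers most. Of 8 neutrophil markers 4 were measured, 2 above 0 and 2 below: S100a8 (log2 ratio 2.46) and S100a9 (2.35) were higher, while Camp was at -0.02 and Csf3r at -0.26. Retnlg passed background in C26 muscle alone and was at least 2.79-fold higher, while Mpo, Ltf and Ngp passed on neither array. The summed scaled signal of that list was 128 in control muscle and 111 in C26 muscle. Csf3r, the brightest of the list at 33121 and 26235, made up most of both sums, so they mainly follow that 1 gene. The part of both lists in the TRIM values was not tested, and in whole muscle fewer cells of a type and less RNA per cell cannot be told apart.

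The chromatin group, the TIF1 class that reads histones and silences genes, had 3 of 4 genes measured, at -0.13, 0.26 and 0.34. Trim28 (KAP1), the corepressor recruited by KRAB zinc finger proteins to silence transposable elements, read 1412 in control muscle and 1696 in C26 muscle, a log2 ratio of 0.34 with an error of 0.20. It was higher on the C26 array by 1.26-fold, and its second probe, at 4.52 and 12.05, was not well above background. Trim33 (TIF1γ), a partner of SMAD proteins in TGF-β signalling, read 235 and 267, a log2 ratio of 0.26 with an error of 0.21. Trim24 (TIF1α), a coregulator of nuclear receptors, read 2899.7 and 2528, a log2 ratio of -0.13, with -0.01 from its second probe. Trim66, the fourth of the class, was at 5.00 and 3.59, not well above background. Of 13 partners in silencing by Trim28, all measured, 7 were above 0 and 6 below, with a median log2 ratio of 0.04. They ran from Chd3 (-0.35), a remodeller of the NuRD complex, to Daxx (0.45), a histone chaperone, and none differed 2-fold.

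Trim72 (MG53), which is made in striated muscle and brings vesicles to tears in the muscle membrane, had nearly the same signal on both arrays. It read 3401 in control muscle and 3367 in C26 muscle, a log2 ratio of 0.06 with an error of 0.20. Under other scalings the ratio ran from -0.04 to 0.06, so it has no settled sign. Among 13 measured genes of membrane repair the median log2 ratio was 0.03, 7 being above 0 and 6 below. Anxa5 (-0.82), Anxa1 (-0.76) and Anxa2 (-0.44), annexins that bind membranes in the presence of calcium, were the lowest, and Ahnak (0.34), a giant scaffold protein, was the highest. Dysf (dysferlin) and Cav3 (caveolin 3), which bind Trim72 protein, had log2 ratios of -0.10 and -0.16. The tissue label was checked on 10 muscle fibre markers, all of which were measured, with a median log2 ratio of 0.04.

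Of the pair of TRIM genes known from red blood cells, Trim10 gave the largest difference of the family. Trim10 (HERF1), a protein of late red cell development, read 7.44 in control muscle, not well above background, and 64.0 on the C26 array. Taking the lowest signal well above background on the control array as the limit, it was at least 3.63-fold higher on the C26 array. Of all 1440 genes that passed background on the C26 array alone, 7.08% were at least 2-fold higher by this limit. The limit was between 3.43-fold and 3.57-fold under 5 of the 6 other scalings and 1.72-fold with normexp background correction. Trim58, a ligase that removes the dynein motor from maturing red cells, was well above background on neither array, at 4.36 and 3.23.

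Of 14 erythroid markers, 5 were measured and 4 of these had a ratio above 0. Slc4a1, the anion exchanger of the red cell membrane, read 107.1 and 548 (log2 ratio 2.43), and Alas2, the first enzyme of red cell haem synthesis, read 1491 and 7039 (log2 ratio 2.31). Ahsp, the chaperone of alpha globin, passed background in C26 muscle alone and was at least 6.20-fold higher. Hemgn, the brightest of the list and most of its summed signal, read 22134 and 23213 (log2 ratio 0.14, error 0.20), Tspo2 was at 0.46, and Ermap was lower (log2 ratio -0.48). Klf1, Rhd, Kel, Epb42, Add2 and Rhag were well above background on neither array. The summed scaled signal of the list was 93.3 in control muscle and 127 in C26 muscle. Their part in the Trim10 value was not tested.

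The NHL repeat group had 2 of 3 genes measured, with opposite signs. Trim3, known from the synapse, read 835 in control muscle and 969.8 in C26 muscle, a log2 ratio of 0.29, and its second probe gave 0.29 as well. Trim2, a ligase that acts on neurofilament light chain in neurons, read 289 and 233, a log2 ratio of -0.24 with an error of 0.21, from 1 of 2 probes. Trim71 (LIN41), a stem cell gene repressed by let-7, was well above background on neither array. In the COS box group, whose members bind microtubules, 1 of 5 genes was measured: Trim46, which bundles microtubules at the start of the axon, read 27.7 and 33.6, a log2 ratio of 0.35 with an error of 0.36. Trim9, Trim36, Trim42 and Trim67 were well above background on neither array.

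The remaining 25 genes had other or varied roles, and 16 of them were measured, 6 above 0 and 10 below, with a median log2 ratio of -0.06. Trim39, a ligase of cell death and cell cycle control, had the highest ratio of the 36 measured genes. It read 122 in control muscle and 171 in C26 muscle, a log2 ratio of 0.56 with an error of 0.21, and its second probe gave 0.39. Trim45 read 127 and 148, a log2 ratio of 0.29, but its second measured probe, at 41.0 and 34.5, gave -0.17. Trim45 therefore has no settled sign, and the mean of both probes was 0.06.

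Trim35, which binds the glycolytic enzyme pyruvate kinase M2, was among the brightest members and among the lowest ratios. It read 13827 in control muscle and 9202 in C26 muscle, a log2 ratio of -0.51 with an error of 0.20. A second, much dimmer probe read 82.3 and 61.8, a log2 ratio of -0.34, so both probes were lower on the C26 array. Trim17, known from neuronal cell death, read 35.0 and 22.6, a log2 ratio of -0.56 with an error of 0.35, and -0.17 with normexp background correction. Trim59, a membrane-bound member, read 55.3 and 44.3 (log2 ratio -0.25, error 0.24) from 1 of 2 probes. Trim7, which binds the glycogen primer glycogenin, read 291 and 238 (log2 ratio -0.21), and its second measured probe gave -0.14.

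Trim41, a ligase that acts on protein kinase C, read 9306 and 8465, a log2 ratio of -0.06 with an error of 0.20. Trim44, which carries a ubiquitin-binding zinc finger in place of the RING finger, read 3805 and 3707, a log2 ratio of 0.04. These bright genes did not differ beyond their errors. Trim11, Trim16, Trim47 and Trim68 had log2 ratios between -0.08 and -0.02, and Trim37, Trim43c and Trim62 between 0.03 and 0.10, all within their errors. Trim43c is known from the early embryo, and its value rests on 1 of 3 probes, at 552 and 535, while the other probes were at most at 4.58 on the control array and not well above background.

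**Figure D2:**
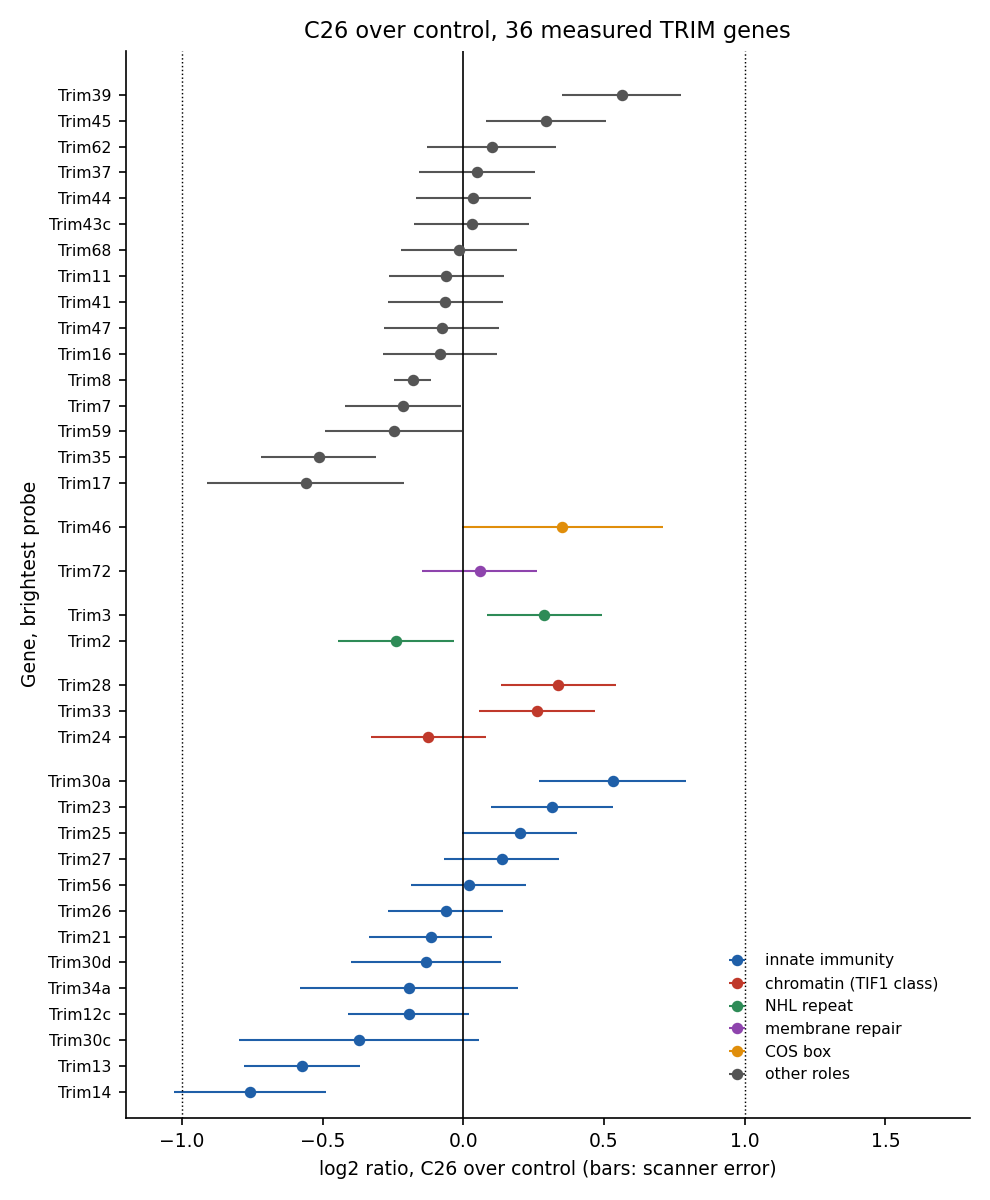
log2 ratio of C26 over control (x) for the 36 measured TRIM genes (y), coloured by role group, with bars of 1 scanner error on each side and dotted lines at a 2-fold difference. The points run from Trim14 at -0.76 to Trim39 at 0.56, none beyond a dotted line, and each of the larger groups has genes on both sides of 0.

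Trim8, which acts on cytokine and NF-kB signalling, is the only member whose probe was printed in 10 copies on each array. The copies show the spread between spots within an array, and not the part of labelling or scaling in a ratio. The copies read from 1355 to 1522 on the control array, with a median of 1441, and from 1165 to 1272 on the C26 array, with a median of 1206. On the scaled log2 scale the control copies lay between 2.37 and 2.54 (SD 0.05) and the C26 copies between 2.22 and 2.35 (SD 0.04), so the copies of the arrays did not overlap. How many other probes with 10 copies do not overlap is not given here, so this is not read as particular to Trim8. The median absolute log2 ratio over all measured genes was 0.19, about the size seen for Trim8. The log2 ratio was -0.18 with an error of 0.06. Under quantile normalization and in the deposited table it was -0.25, a shift larger than that error. The copies share 1 RNA sample per array and say nothing of the spread between animals.

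**Figure D3:**
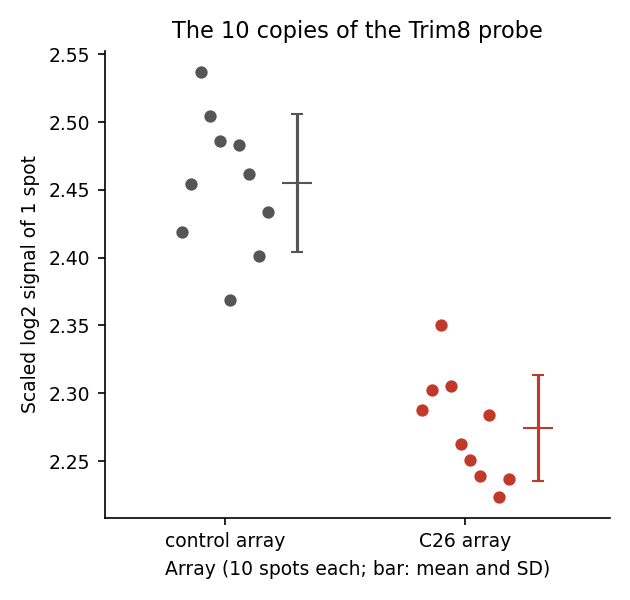
Scaled log2 signal (y) of the 10 spots of the Trim8 probe on each array (x), with the mean and SD beside the points. The lowest control spot (2.37) lies above the highest C26 spot (2.35).

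The 12 TRIM genes with several measured probes allowed the ratios of separate probes to be set side by side. In 10 of the 12 all measured probes had the same sign, and in Trim45 and Trim56 they did not. The distance between the highest and lowest ratio of a gene was smallest in Trim3, largest in Trim45 (0.47) and had a median of 0.10. In 6 further genes, Trim2, Trim14, Trim28, Trim34a, Trim43c and Trim59, only 1 of several probes was measured. The probes of different TRIM genes had at most 31 of their 60 bases in common when laid side by side without gaps, as in a pair from Trim25 and Trim6. This compares probe with probe, so it cannot show whether a probe also binds the RNA of a related gene.

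**Figure D4:**
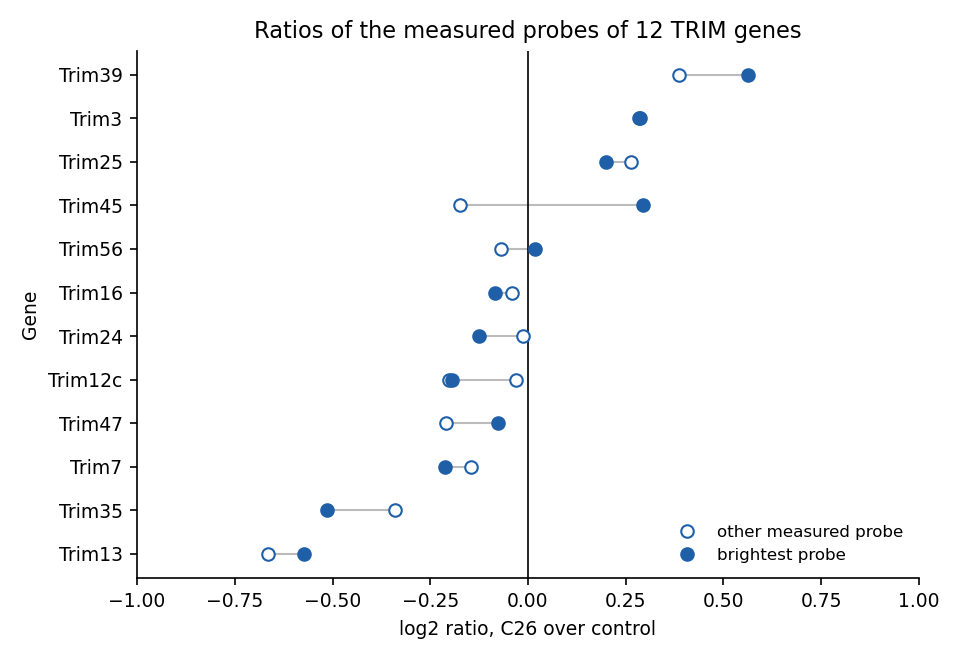
log2 ratio of C26 over control (x) for each measured probe of 12 TRIM genes (y); filled circles are the brightest probe, open circles the other measured probes, and grey lines join probes of 1 gene. Both probes of Trim13 (-0.57 and -0.66) lie far left of 0 and both of Trim39 (0.56 and 0.39) far right, while the Trim45 line crosses 0.

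The TRIM genes lie in groups along the genome, given here by the mm9 positions of the brightest probes with gaps of at most 1000000 bases. The largest group, on chromosome 7 from 111376674 to 111681534, held 11 genes (Trim6, Trim34a, Trim5, Trim12a, Trim34b, Trim12c, Trim30b, Trim30c, Trim30a, Trim30d and Trim30e-ps1). Of these 5 were measured, and Trim30a was above 0 while the other 4 were below, with a median log2 ratio of -0.19. The group on chromosome 17 from 36396026 to 37047104 held Trim39, Trim26, Trim15, Trim10, Trim40 and Trim31. It thus contains both the highest measured ratio, Trim39, and the gene with the largest limit, Trim10 (probe at 37014159 to 37014218), while Trim26, between them in position, was at -0.06. On chromosome 11 from 58465809 to 58804922, Trim17 and Trim11 were measured, both below 0, and Trim58 was not. Trim75, Trim60 and Trim61, on chromosome 8 from 67505601 to 67537071, were not measured. Trim60 alone of them was well above background on the C26 array, at 14.6 against 7.03 on the control array, too dim for a fold to be given. Outside these groups, the brightest probes of the members with the lowest ratios lay at chr4:46517951-46517993 (Trim14), chr14:62224545-62224604 (Trim13) and chr14:66930151-66930210 (Trim35). That of Trim28 lay at chr7:13615914-13616069, that of Trim72 at chr7:135154841-135154900 and that of Trim25, whose 60 bases are split over a longer stretch, at chr11:88874956-88881181. Which exon or untranslated region each probe lies in was not analysed here.

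Of the 9 genes with an interferon-stimulated response element in the promoters printed above, 7 were measured, 1 above 0 and 6 below, where 20 of all 36 measured TRIM genes were below. Their log2 ratios were -0.24 (Trim2), -0.19 (Trim12c and Trim34a), -0.13 (Trim30d), -0.12 (Trim21), -0.06 (Trim26) and 0.53 (Trim30a), with a median of -0.13. The second Trim30a promoter and that of Trim30d carry the same letters around the match. The Trim30a ratio was further from 0 than its error (0.26), and that of Trim30d was within its error (0.27). The part of the element in these ratios was not tested. Of the 4 genes with AGATAA, Trim39 (0.56) and Trim72 (0.06) were measured. GTAAACA, the core of a forkhead site, stood only in the promoter of Trim67 (2.08% of 48 genes, against 4.05% of all genes with a promoter). No TRIM promoter held GGGAC followed directly by TTTCC, an NF-kB site (0.174% of all genes), or AGAACA, any 3 bases and TGTTCT, the glucocorticoid response element (0.0111% of all genes). All motifs were looked for on both strands.

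The 25 genes well above background on neither array had signals between 3.88 and 16.0 on the control array and between 2.79 and 16.4 on the C26 array. The dimmest probe called well above background read 18.5 in control muscle and 14.1 in C26 muscle, so low levels of these genes could not be seen. Beside the genes already named they include Trim29, Trim31, Trim50, Trim52, Trim43b and Trim69 of the group with other roles.

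In all, 6 other scalings of the arrays were compared to see which signs rest on the scaling. Of the 36 measured genes, 31 kept the sign of their ratio under all 6, 11 above 0 and 20 below, and 5 did not: Trim37, Trim43c, Trim44, Trim56 and Trim72, all just above 0 in the 75th percentile scaling. The number of genes above 0 was 16 of 36 in that scaling and between 11 and 16 under the others. No measured gene reached 2-fold in either direction under any of them. The largest shifts were under normexp background correction, which drew the dim genes Trim14, Trim17, Trim30a and Trim30c towards 0.

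**Figure D5:**
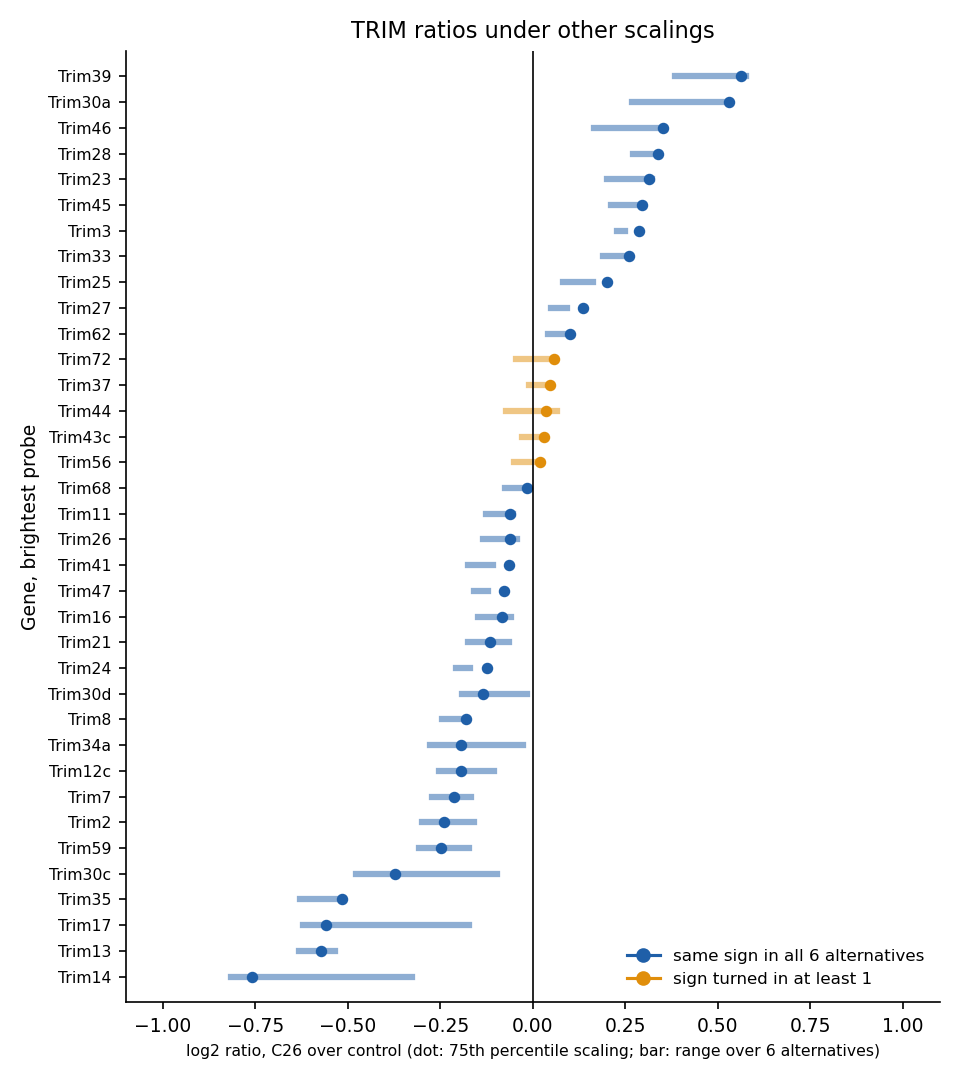
log2 ratio of C26 over control (x) of the 36 measured TRIM genes (y) in the 75th percentile scaling (dots) and its range over 6 alternative scalings (bars); blue genes kept their sign in all and orange genes did not. Bars of the dim genes Trim14 (to -0.33), Trim17 (to -0.17) and Trim30a (to 0.27) are long, and the 5 orange genes all lie near 0.

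TRIM and TRIM-like proteins under other names gave 6 measured genes of 9, with a median log2 ratio of 0.03. Mid1, a microtubule-bound ligase, read 26.3 and 38.6 (log2 ratio 0.63, error 0.34). Mefv (pyrin), the inflammasome sensor, read 21.0 and 26.2 (0.40, error 0.38), while Fsd2, which has a SPRY domain and is found in muscle, read 1835 and 1296 (log2 ratio -0.43, error 0.20). Pml, the organiser of PML nuclear bodies, was at -0.05. None of the 6 measured genes reached 2-fold. Mid2 and Bspry passed background on the C26 array alone. Mid2, at 21.4 and 38.1, was at least 1.88-fold higher, and Bspry, at 8.80 and 16.9, was too dim for a fold to be given. Rnf207 passed on neither array. For comparison, the genes left out of the family here had log2 ratios of 1.75 (Trim63), 0.38 (Trim54), -0.12 (Trim32) and -0.40 (Trim55), so that Trim63 alone of the 40 measured genes with a Trim name on this array reached 2-fold.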

How the data were processed

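Total RNA was labelled with Cy3 and read on 2 one-colour arrays, 1 per group. Per the file headers, the authors' deposited intensity values are processed signals of Agilent Feature Extraction 10.7.1.1 (the submitters' processing notes list 9.5.1.1), background-subtracted and detrended within each array, with surrogates for spots too low to measure, which makes low signals less precise. The number of arrays limits the precision.

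Here, outlier spots were dropped (110 control, 91 C26), log2 signals were averaged per probe, and each array's 75th percentile over non-control probes was subtracted. Of non-control spots, 50.4% and 53.8% were well above background and none was saturated. A gene counted as measured if its brightest probe passed background on both arrays. Where it passed on 1 array, the "at least" fold sets that value against the dim probe, raised to the dimmest passing probe of its array. A deposited table, linear and not centred, matched quantile-normalized signals within 0.01 on the log2 scale for 99.9% of values in each column, and served as an alternative. The sources used here do not say how the authors made it.

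Probe positions are those of the files (mm9). Names are the array's; promoters matched by symbol. The members, the role and companion lists and the rule for fuller values (6 highest and 6 lowest ratios, 6 brightest, at least 1.5-fold, and genes picked by role) were chosen with earlier results of these data known. The values of a few list members are not reported here. Scaling was tested on simulated data. Tools were Python 3.11.15, pandas 2.3.3, R 4.3.3 and limma 3.58.1 (normexp, offset 50).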

Additional observations from a re-analysis of the deposited data

How the results depend on the processing

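None of the measured TRIM genes reached 2-fold under normexp, quantile, median scaling, a 75th percentile restricted to probes above background, loess (span 0.3), the deposited table, the mean over measured probes or the stricter filter. Without the filter on dim probes, 5 of 63 TRIM genes were at least 2-fold higher, where 1579 of all 34740 genes were. Of the 63, 27 were above 0 (42.9%, against 46.7% of all genes). These values include signals below background. At a 1.5-fold threshold 1 gene was lower in the 75th percentile scaling, and at 3-fold none was. In that scaling 35 of the 36 lay within 1.5-fold. The count was 36 with normexp, 33 under median scaling and the restricted 75th percentile, and 32 under quantile, loess and the deposited table. Under quantile normalization Trim13 (-0.61), Trim17 (-0.59) and Trim35 (-0.62) passed 1.5-fold beside Trim14. Of all 19668 measured genes, between 17820 and 18827 lay within 1.5-fold under these 6 scalings. With the stricter filter (a signal of at least 100 on both arrays) the median log2 ratio was 0.019 over 25 genes; under the 6 scalings it lay between -0.12 and -0.02. The Trim10 limit was 0.78 on the log2 scale with normexp, against 1.86. The cause of these shifts was not tested. Dim signals limit what can be seen. No paired analysis was possible because each group has 1 array.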

Other observations

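Probes listed under older names that the reference table gives as TRIM genes were not counted among the 63. The probe listed as Dear1 (Trim62) read 8.21 in control and 2.90 in C26 muscle, and that listed as 4933422H20Rik (Trim80) read 4.54 and 3.22. Neither was well above background on either array, whereas the Trim62 probe of the array itself read 69.2 and 70.5.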
